A study of Saccharomyces cerevisiae and Saccharomyces cerevisiae x Saccharomyces paradoxus with 20 samples.

Results

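RNA transcribed from the Saccharomyces paradoxus genome was measured by RNA-Seq in 2 states, a haploid strain and a diploid hybrid with S. cerevisiae. The haploid is CBS432. The hybrid, UWOPS05_217_3-CBS432, joins the genome of CBS432 with that of UWOPS05_217_3, an S. cerevisiae strain that was also measured as a haploid. Each state had 2 biological replicates, so 4 of the 20 samples of the series enter the main comparison, and every strain or hybrid was grown to log phase in YEPD, a rich glucose medium, with no other treatment. The tables list 4995 genes and were taken whole: for CBS432, the counts at sites where it differs from UWOPS05_217_3, and for the hybrid, the counts assigned to the S. paradoxus allele. CBS432 carries the organism name S. cerevisiae in the sample records and was treated as S. paradoxus, as the study describes it.

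The haploid and the hybrid differ in ploidy, in the presence of a second genome, in mating-type constitution and in the reference used for mapping, since haploid reads were mapped to 1 genome and hybrid reads to both together. These cannot be told apart here. Each state is a single strain, and the sources used here do not give the mating type of the haploids. Column totals were 51389633 and 106845771 for CBS432 and 54971715 and 36531177 for the S. paradoxus allele of the hybrid. A read covering several sites may be counted more than once, so totals are not numbers of reads. Levels are given as counts scaled to a column total of 1000000 (CPM), not divided by gene length. Changes are given as the log2 of hybrid over haploid with an approximate standard error (SE). The SE was worked back from the change and its test statistic, and can be too small where counts are few. A called gene had an adjusted p under 0.05 in edgeR's quasi-likelihood test over all genes tested.

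A haploid yeast cell is of mating type a or alpha, and each type expresses its own pheromone, the receptor for the other pheromone and a shared signalling pathway that prepares it to mate. Genes used by either haploid type are called haploid-specific. In a diploid with both mating-type loci, a repressor assembled from the products of those loci shuts off haploid-specific genes, and a product of the alpha locus keeps a-specific genes off, so that diploids do not mate. Diploid cells also bud at either pole rather than beside the last bud site.

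Of 4994 genes tested, 299 differed between haploid and hybrid, 79 higher and 220 lower in the hybrid. This is 5.99% of the genes tested in either direction, 1.58% for genes higher and 4.41% for genes lower in the hybrid. Among the called genes, 15 rose and 66 fell by 2-fold or more. The median log2 change over all genes was -0.02 with quartiles of -0.15 and 0.09, and the median size of the change was 0.12, against median differences of 0.1 and 0.11 between the replicates of the haploid and of the hybrid. The 2 states did not overlap in any of the 299 called genes, and they did not overlap in 51.3% of all genes tested. Leaving out a hybrid library lowered the count of called genes, to 162 for replicate 1 and 154 for replicate 2. Leaving out a haploid library raised it, to 444 for CBS432 replicate 1 and 449 for CBS432 replicate 2. DESeq2 called 220 genes higher and 373 lower, so that 37.1% of its calls were higher, against 26.4% in edgeR.

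**Figure D1:**
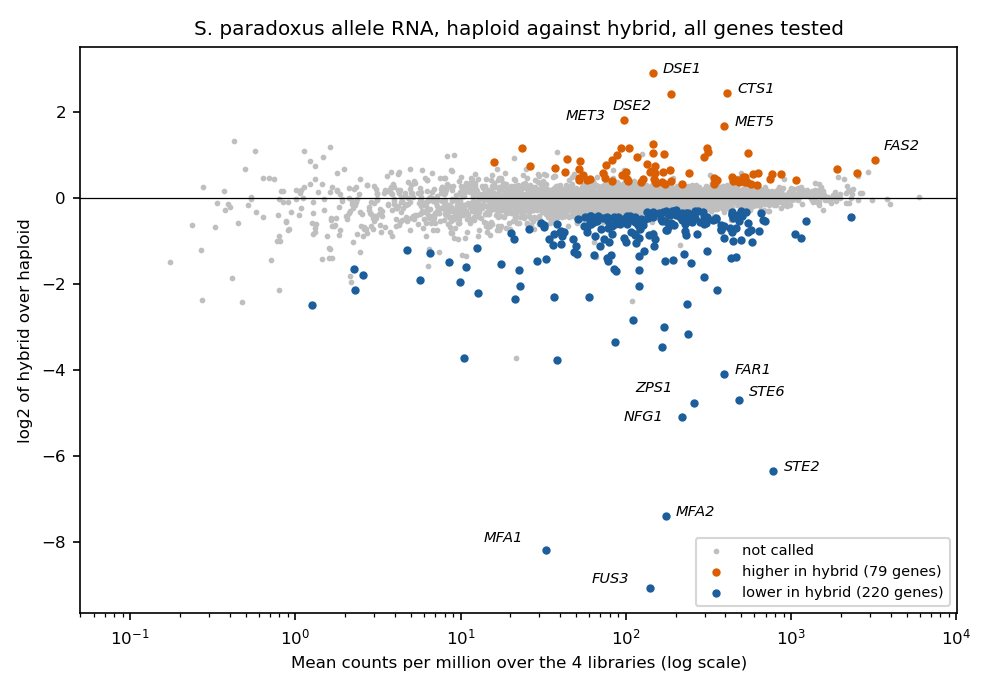
Change in S. paradoxus allele RNA from haploid to hybrid (log2, vertical axis) against the mean CPM of the 4 libraries (log scale, horizontal axis), 1 point a gene, with the 79 genes called higher and the 220 called lower coloured. FUS3, MFA1 and MFA2 lie lowest, at -9.07, -8.19 and -7.40, and DSE1 lies highest, at 2.92.

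The haploid-specific genes fell. All 8 listed genes that the tables hold were called lower in the hybrid, against 4.41% of all genes tested. Their median log2 change was -2.18 against -0.02 for all genes tested. In such bulk cultures, fewer cells expressing a gene and less RNA per cell cannot be told apart. The remaining 4 genes of the list, GPA1, STE4, RME1 and HO, were not analysed here. FUS3 encodes the MAP kinase of the mating pathway (chromosome II, 192451 to 193512, in the S. cerevisiae coordinates of the tables). It had 276 and 281 CPM in the haploid libraries and 0.437 and 0.630 CPM in the hybrid libraries, where its S. paradoxus allele had 24 and 23 counts, so nearly all of its signal was in the haploid. The change was -9.07 (SE 0.14, adjusted p = 1.81e-08). FAR1, which holds the cell cycle in G1 during mating, had 744 and 739 CPM in the haploid and 49.4 and 37.0 CPM in the hybrid, a change of -4.10 (SE 0.14, adjusted p = 1.26e-06).

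The other haploid-specific genes fell less and kept measurable levels in the hybrid. AXL1, a protease that matures a-factor and marks the axial bud site, fell from 155 and 156 CPM to 15.6 and 14.8 CPM, by 3.36 on the log2 scale. STE18, the gamma subunit of the pheromone G protein, had 65.2 and 56.6 CPM in the haploid and 10.6 and 14.1 CPM in the hybrid. STE5, the scaffold of the MAP kinase cascade, had 191 and 194 CPM in the haploid and 47.2 and 45.7 CPM in the hybrid. In neither gene did the states overlap, and their log2 changes were -2.31 (SE 0.17, adjusted p = 0.000175) and -2.05 (SE 0.08, adjusted p = 2.91e-06). RDH54, a recombination ATPase, changed by -1.84 (SE 0.09) and AMN1, which antagonizes mitotic exit and cell separation, by -1.39 (SE 0.10).

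NEJ1, a regulator of non-homologous end joining, showed the smallest fall of the 8. It had 49.3 and 52.4 CPM in the haploid and 32.7 and 27.2 CPM in the hybrid, a change of -0.76 (SE 0.13, adjusted p = 0.0137). The call was lost without hybrid replicate 2, where the adjusted p was 0.0682. Its S. cerevisiae allele went from 160 and 133 CPM to 8.48 and 5.36 CPM, a log2 of -4.39. The responses of the alleles differed by 3.66 (SE 0.19, adjusted p = 1.16e-05 in the test of the difference).

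Of the 6 a-specific genes in the tables, 5 fell, against 4.41% called lower over all genes, and the median of the list was -5.53. MFA1 and MFA2 encode a-factor, the pheromone of a cells. MFA1 (chromosome IV, 1385176 to 1385286) had 67.4 and 62.8 CPM in the haploid and 0.127 and 0.356 CPM in the hybrid, the latter from 7 and 13 counts. MFA2 (chromosome XIV, 352414 to 352530) had 408 and 284 CPM in the haploid and 2.77 and 1.09 CPM in the hybrid. The haploid levels were far above the hybrid levels for each, and the changes were -8.19 (SE 0.29, adjusted p = 1.72e-06) and -7.40 (SE 0.33, adjusted p = 6.43e-06). STE2, the receptor for alpha-factor (chromosome VI, 82580 to 83875), had 1473 and 1610 CPM in the haploid and 18.1 and 19.5 CPM in the hybrid, a change of -6.36 (SE 0.10, adjusted p = 1.81e-08). STE6, the transporter that exports a-factor, went from 949 and 910 CPM to 42.6 and 28.5 CPM. ASG7, which modulates receptor signalling after cell fusion, went from 18.6 and 20.5 CPM to 1.75 and 1.15 CPM. Neither showed overlap between the states, and the changes were -4.70 (SE 0.18) and -3.73 (SE 0.28).

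BAR1 was the exception among the a-specific genes. It encodes the secreted protease that degrades alpha-factor, and it had 286 and 288 CPM in the haploid and 317 and 303 CPM in the hybrid. The log2 change of 0.11 (SE 0.07, adjusted p = 0.416) did not pass the test. Its S. cerevisiae allele was at similar levels, with 301 and 299 CPM in the haploid UWOPS05_217_3 and 322 and 310 CPM in the hybrid. AGA2 was not analysed here.

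The genes specific to alpha cells were mostly not called. MF(ALPHA)2, a second gene for alpha-factor, had 7.34 and 6.07 CPM in the haploid and 9.00 and 4.27 CPM in the hybrid. STE3, the receptor for a-factor, had 9.75 and 14.1 CPM in the haploid and 8.30 and 4.22 CPM in the hybrid, and SAG1, the alpha agglutinin, had 136 and 108 CPM against 104 and 93.2 CPM. None of these 3 passed the test, with adjusted p-values of 0.998, 0.191 and 0.210. The states overlapped for MF(ALPHA)2. AFB1, the remaining alpha-specific gene in the tables, fell from 122 and 143 CPM to 38.9 and 42.7 CPM (log2 of -1.70, SE 0.11, adjusted p = 8.38e-05). Its S. cerevisiae allele, with 43.9 and 55.5 CPM in UWOPS05_217_3 and 15.5 and 13.6 CPM in the hybrid, changed by -1.77.

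Markers of a cells had a wide range of levels in both haploids. The a-specific STE2 was at 1473 to 1881 CPM in CBS432 and UWOPS05_217_3 and at 14.9 to 19.5 CPM in the allele columns of the hybrid. In the same haploids STE6 was at 722 to 949 CPM, MFA2 at 284 to 408 CPM and BAR1 at 286 to 301 CPM. MFA1 was at 39.7 to 67.4 CPM and ASG7 at 13.2 to 20.5 CPM. Of the alpha-specific genes, SAG1 was at 88.1 to 136 CPM and AFB1 at 43.9 to 143 CPM. MF(ALPHA)2 was at 6.07 to 8.53 CPM and STE3 at 0.728 to 14.1 CPM. No mating type was assigned from these levels. A diploid formed by mating needs a parent of each type, and the sources used here do not say which parent of the hybrid was alpha or whether the haploids measured were the cells that were crossed. A difference in mating type between a measured haploid and the parent of the hybrid was not tested. MF(ALPHA)1 was not analysed here, and the genes of the mating-type loci were not analysed either.

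**Figure D2:**
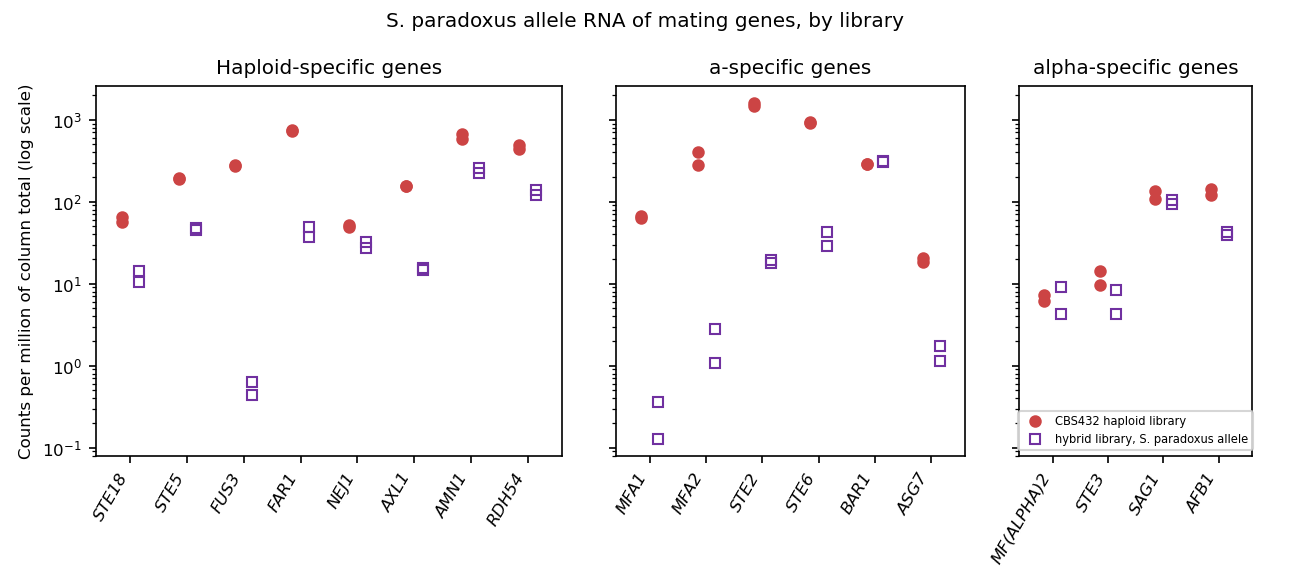
S. paradoxus allele RNA of the haploid-specific, a-specific and alpha-specific genes in each library (CPM, log scale), with filled circles for the 2 CBS432 libraries and open squares for the 2 hybrid libraries. The states are apart for all 8 haploid-specific genes and for 5 of 6 a-specific genes, while BAR1 lies between 286 and 317 CPM in every library.

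Genes of the pheromone response, most of which are induced by Ste12 when pheromone is bound, fell in part. Of 20 tested, 10 were called lower and none higher, against 4.41% called lower over all genes. The median of the list was -0.59. FUS1, needed for cell fusion, had 73.7 and 68.3 CPM in the haploid and 5.17 and 5.15 CPM in the hybrid, a change of -3.78 (SE 0.13, adjusted p = 1.57e-06). TEC1, the transcription factor of filamentous growth, fell from 310 and 297 CPM to 39.3 and 36.2 CPM (log2 of -3.01, SE 0.08). SST2, which shuts off the G protein signal, fell from 383 and 406 CPM to 75.4 and 68.0 CPM (log2 of -2.46, SE 0.08). The states did not overlap in any of these 3 genes, as in all 299 called genes and in 51.3% of all genes tested. The hybrid libraries lay close together.

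The factor STE12 itself fell by 1.44 on the log2 scale, and DIG1, its repressor, by 1.29. The other calls were FIG1 at -1.91, PRM4 at -1.47, KAR4 at -1.30 and BEM1 at -0.63, and KAR5, a nuclear fusion gene, at -0.54 with a call that was lost without either hybrid replicate. For PRM4, a pheromone-regulated membrane protein, the S. cerevisiae allele was at 0.04 and the responses differed by -1.51 (adjusted p = 0.00492). The pathway kinases were not called, with STE7 at 0.02 and STE11 at -0.15, and neither was FUS2 at 0.07.

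Some genes beside mating genes moved with them. GYP8, a GTPase activator for a Rab protein, lies next to STE2, and a single accessible region lies between them. GYP8 had 193 and 195 CPM in the haploid and 30.0 and 24.1 CPM in the hybrid, a change of -2.84 (SE 0.12, adjusted p = 4.47e-06). NFG1, a negative regulator of filamentous growth, fell from 408 and 443 CPM to 12.1 and 13.1 CPM (log2 of -5.09, SE 0.09, adjusted p = 3.61e-08). It lies on chromosome XII from 229966 to 230451. Its neighbour YLR041W fell by 2.04 on the log2 scale and shares 206 bases with AFB1, so the reads of these overlapping genes cannot be told apart, as the library kit is not stated to keep the strand. ICS2, near AMN1 on chromosome II, had 11.4 and 20.9 CPM in the haploid and 5.37 and 5.28 CPM in the hybrid, a call that was lost without either hybrid replicate. GYP8, YLR041W and ICS2 were chosen after their values were seen.

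Accessible chromatin gave a second readout of the same allele. FAIRE-Seq isolates DNA free of bound protein, and the study counted it over nucleosome-free regions (NFRs) upstream of genes. Of 3451 NFRs tested on the S. paradoxus allele, 9 differed, 2 higher and 7 lower in the hybrid, which is 0.261% of those tested (0.058% higher and 0.203% lower). Leaving out hybrid replicate 1 gave 39 calls, CBS432 replicate 1 gave 18, and either of the other libraries gave 12. FAIRE column totals were between 1339393 and 2670382, far below those for RNA.

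The 7 NFRs with lower signal included those upstream of FUS3, MFA1, STE2 and MFA2. The NFR of FUS3 had 425 and 579 CPM of the FAIRE total in the haploid and 114 and 146 CPM in the hybrid, a log2 of -1.95 (SE 0.33, adjusted p = 0.00125). The NFR shared by STE2 and GYP8 had 1323 and 1612 CPM in the haploid and 298 and 392 CPM in the hybrid, a log2 of -2.09 (SE 0.31, adjusted p = 0.000327). The NFR of MFA1 changed by -1.92 (SE 0.31) and that of MFA2 by -1.84 (SE 0.31). Haploid libraries lay above hybrid libraries in each of these regions, which adds no support, as that share over all NFRs was not counted.

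Of the 9 called NFRs, the one with the largest change was a region on chromosome XV, 742308 to 742830 as deposited, whose nearest genes are STE4, the beta subunit of the pheromone G protein, and MGM1. It had 585 and 756 CPM in the haploid and 51.9 and 85.9 CPM in the hybrid, a log2 of -3.29 (SE 0.35, adjusted p = 1.23e-06). The last pair of falling regions lay upstream of ZPS1 (log2 of -2.12, SE 0.36) and near the zinc transporter gene ZRT1 (log2 of -1.90, SE 0.31). The regions with higher signal were upstream of YAT1 on chromosome I, where replicates differed widely, with 194 and 41 CPM in the haploid and 280 and 844 CPM in the hybrid, and on chromosome XIV near ALF1 and PGA2.

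Most genes called in RNA had no call in FAIRE. Of 216 called genes paired with a tested NFR within 300 bases of the start codon, 6 had a called NFR. Over all NFRs tested, 9 of 3451 (0.261%) were called. STE2 and GYP8, among the 6 genes, share 1 NFR. Among 155 NFRs of genes called lower in RNA, 104 had a log2 below 0 and the median was -0.10, the same as the median of -0.10 over all NFRs tested, of which 2091 of 3451 were below 0. The 56 NFRs of genes called higher had a median of 0.16. The NFR of FAR1 changed by -1.31 (SE 0.35, adjusted p = 0.189) and that of STE18 by 0.04 (SE 0.31), values that did not pass the test.

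**Figure D3:**
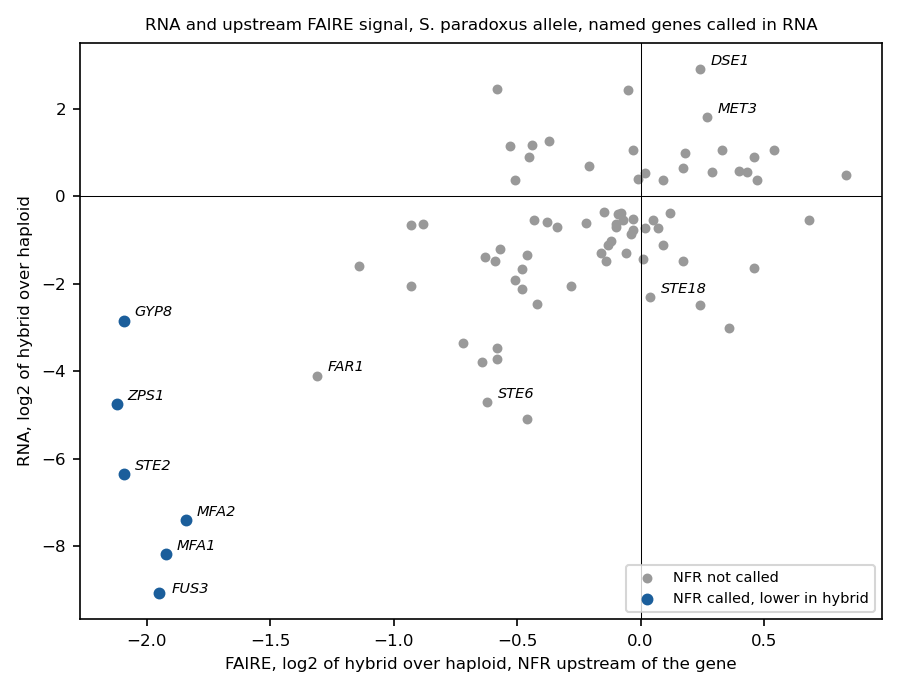
RNA change of each named gene called in RNA (log2 of hybrid over haploid, vertical axis) against the FAIRE change of its upstream NFR (horizontal axis), S. paradoxus allele. The 6 genes with a called NFR, FUS3, MFA1, MFA2, STE2, ZPS1 and GYP8, lie between -1.84 and -2.12 in FAIRE, while DSE1 and MET3 rose in RNA with FAIRE changes of 0.24 and 0.27.

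The largest rises were in genes of daughter cell separation, which are switched on in daughter cells after mitosis. DSE1 (chromosome V, 407342 to 409063) had 34.5 and 33.3 CPM in the haploid and 263 and 249 CPM in the hybrid, a change of 2.92 (SE 0.08, adjusted p = 3.95e-07). CTS1, the chitinase that opens the septum, rose from 115 and 139 CPM to 660 and 728 CPM (log2 of 2.45, SE 0.11). DSE2, a glucanase-like secreted protein, rose from 58.7 and 57.9 CPM to 298 and 332 CPM (log2 of 2.43, SE 0.08). DSE4, a glucanase, rose from 91.2 and 98.4 CPM to 192 and 203 CPM (log2 of 1.06, SE 0.08). Hybrid libraries were above haploid libraries in each of the 4 genes, which adds no support, as the states were apart in all 299 called genes.

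Other tested genes on that list did not rise. AMN1 fell, as given above, and ASH1, at -0.41, DSE3, at 0.17, and FLO8, at -0.17, were not called. SWI5, a factor of the same mitotic exit programme, had 207 and 196 CPM in the haploid and 85.9 and 101 CPM in the hybrid, a fall of 1.11 on the log2 scale (adjusted p = 0.000372).

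Several genes of bud-site choice and chitin synthesis, all chosen after their values were seen, were also lower. RAX2, a landmark of bipolar budding, fell from 504 and 519 CPM to 267 and 274 CPM (log2 of -0.92, SE 0.07). BUD3, an axial landmark, fell from 530 and 528 CPM to 349 and 303 CPM (log2 of -0.70, SE 0.08). The chitin synthases CHS1 and CHS3 changed by -0.70 (SE 0.07) and -0.66 (SE 0.08), and GIC2, an effector of Cdc42, by -1.52 (SE 0.10). The G1 cyclin list had 2 of 18 genes lower and none higher, against 4.41% called lower over all genes. These were PCL9, from 171 and 187 CPM to 90.3 and 107 CPM, and CLN2, whose call was lost without either hybrid replicate.

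Of 22 tested genes for sulfur assimilation and methionine synthesis, 9 rose in the S. paradoxus allele, none fell and 13 were not called, against 1.58% called higher over all genes. The median of the list was 0.42. The count was between 7 and 12 when a library was left out. MET3, ATP sulfurylase, which activates sulfate, had 50.8 and 35.6 CPM in the haploid and 154 and 151 CPM in the hybrid, a change of 1.82 (SE 0.16, adjusted p = 0.000419). MET5 and MET10, the subunits of sulfite reductase, had 213 and 162 CPM and 96.7 and 76.0 CPM in the haploid, and 641 and 551 CPM and 239 and 172 CPM in the hybrid. Both were higher in each hybrid library, by 1.67 (SE 0.14, adjusted p = 0.000300) for MET5 and 1.26 (SE 0.17, adjusted p = 0.00388) for MET10.

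Other genes of the list rose as well. MET17, which makes homocysteine, had 235 and 168 CPM in the haploid and 427 and 419 CPM in the hybrid, a change of 1.07 (SE 0.14). MET2, the homoserine acetyltransferase, rose by 1.17 (SE 0.16), and shares 379 bases with YNL276C, called at 1.16 (SE 0.25), so that the reads of this pair cannot be told apart. MET6, methionine synthase, changed by 1.05 (SE 0.18), with a call that was lost without either hybrid replicate. MET16, PAPS reductase, and MET22, a phosphatase of the same route, rose by 0.91 and 0.65, and MET16 lost its call without hybrid replicate 1. MMP1, a transporter of S-methylmethionine, rose from 62.2 and 55.5 CPM to 123 and 112 CPM. MXR1, a methionine sulfoxide reductase outside the list, rose from 218 and 162 CPM to 436 and 415 CPM (log2 of 1.16, SE 0.13). The regulators did not pass the test, with MET4 at -0.02, CBF1 at 0.11 and MET31 at 0.04, nor did the sulfate permease SUL1, at -0.09.

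The S. cerevisiae alleles, in the same hybrid cells, gave other values. MET3 had 527 and 463 CPM in UWOPS05_217_3 and 240 and 210 CPM in the S. cerevisiae allele of the hybrid. The responses of the alleles differed by 2.96 (SE 0.20, adjusted p = 3.78e-05). For MET10 the S. cerevisiae allele went from 386 and 302 CPM to 191 and 148 CPM, and the responses differed by 2.27 (SE 0.19, adjusted p = 0.000122). The test of the difference was called for 11 of the 22 genes, against 14.6% of all genes tested, 10 with the S. paradoxus allele rising relative to the S. cerevisiae allele and 1, MMP1, with the opposite sign at -0.62. The S. cerevisiae allele of MMP1 had 27.4 and 31.6 CPM in UWOPS05_217_3 and 87.2 and 94.5 CPM in the hybrid, a log2 of 1.62. With any single library left out, 9 or 10 genes of the list had a positive call. The MMP1 difference was lost without CBS432 replicate 1, UWOPS05_217_3 replicate 1 or either hybrid replicate.

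**Figure D4:**
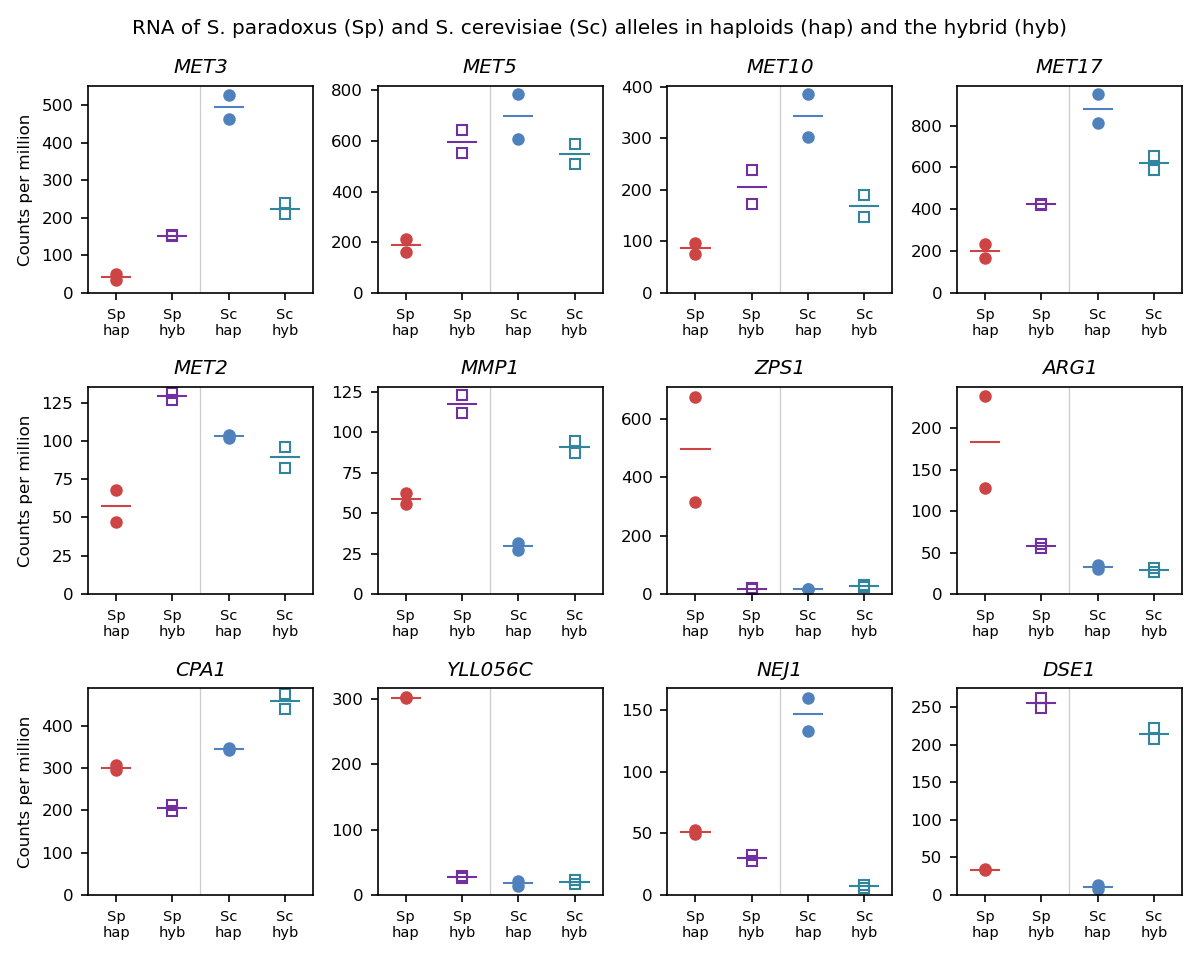
RNA of 12 genes in the S. paradoxus (Sp) and S. cerevisiae (Sc) haploids and in the allele columns of the hybrid (CPM, axes from 0), with a point a library and a line at the mean of 2. MET3, MET5, MET10, MET17 and MET2 are higher in the hybrid on the S. paradoxus side only, and ZPS1, ARG1, CPA1 and YLL056C are lower there.

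Over all genes, the response of the S. paradoxus allele minus that of the S. cerevisiae allele was called in 727 of 4995 genes, 14.6% of those tested, with 444 positive (8.89%) and 283 negative (5.67%). TMM normalization gave 354 positive and 454 negative, and DESeq2 518 and 566, so the direction of the split depended on the scaling. Fewer differences were called when hybrid replicate 1 (183), hybrid replicate 2 (161), CBS432 replicate 1 (506) or CBS432 replicate 2 (341) was left out, and more when UWOPS05_217_3 replicate 1 (980) or replicate 2 (757) was. Of the 299 genes called for the S. paradoxus allele, 137 were called for this difference. By list, 11 of 20 general stress genes and 9 of 13 purine genes were positive, with 1 purine gene negative. Negative calls were 15 of 55 mitochondrial ribosomal protein genes, with 1 positive, and 12 of 40 ribosome biogenesis genes. The negative counts in these last lists depended on which libraries were included.

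The widest differences in response lay in a few genes. YLL053C, similar to a water channel and on chromosome XII from 35503 to 35961, had 428 and 421 CPM in CBS432 and 23.3 and 72.4 CPM in the S. paradoxus allele of the hybrid. Its S. cerevisiae allele had 5.47 and 8.29 CPM in UWOPS05_217_3 and 65.1 and 120 CPM in the hybrid. It shares 50 bases with AQY2, which was not analysed here. The log2 changes of the alleles were -3.16 and 3.74, and the responses differed by -7.04 (SE 0.29, adjusted p = 2.69e-06). YLL056C, an uncharacterized gene from 27409 to 28305 on the same chromosome, had 301 and 302 CPM in CBS432 and 28.9 and 25.6 CPM in the S. paradoxus allele of the hybrid. Its S. cerevisiae allele was between 14.4 and 22.5 CPM in all 4 columns, and the responses differed by -3.60 (SE 0.26). YGP1, a stress-induced glycoprotein, and TSL1, of trehalose synthesis, were not called in the S. paradoxus allele, at 0.66 and -0.24, while their S. cerevisiae alleles had log2 changes of -2.25 and -2.69.

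Of 10 tested genes for zinc uptake and use, 4 fell, none rose and 6 were not called, with a list median of -0.44, against 4.41% called lower over all genes. ZPS1, a zinc-regulated surface protein (chromosome XV, 34658 to 35407), had 677 and 315 CPM in the haploid and 19.2 and 17.4 CPM in the hybrid, a change of -4.76 (SE 0.34, adjusted p = 0.000146). The haploid replicates differed by more than 2-fold, and each was far above the hybrid libraries. In the S. cerevisiae allele ZPS1 had 16.4 and 16.4 CPM in the haploid and 24.6 and 31.5 CPM in the hybrid, and the responses differed by -5.52 (SE 0.42, adjusted p = 6.67e-05). ZAP1, the activator of zinc-responsive genes, fell from 108 and 81.7 CPM to 43.8 and 44.3 CPM (log2 of -1.11, SE 0.14). ZRT3, the vacuolar zinc exporter, changed by -0.61 (SE 0.08), and ADH4 by -0.58 (SE 0.11), the latter with a call that was lost without either hybrid replicate.

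Iron genes varied between replicates. Of 22 tested, 3 were called lower and none higher, against 4.41% called lower over all genes, and the list median was -0.34. Leaving out CBS432 replicate 1 gave 14 calls and replicate 2 gave 7, while leaving out hybrid replicate 1 gave 1 and replicate 2 gave 2. FRE1, the main surface ferric reductase, had 288 and 868 CPM in the haploid and 91.3 and 174 CPM in the hybrid (log2 of -2.13, SE 0.48, adjusted p = 0.0429). FRE6, a vacuolar reductase, had 132 and 136 CPM in the haploid and 60.8 and 71.9 CPM in the hybrid (log2 of -1.02, SE 0.10, adjusted p = 0.000987). FIT2, a mannoprotein that retains siderophore iron, had 10.2 and 70.4 CPM in the haploid and 1.49 and 4.79 CPM in the hybrid, and its adjusted p was 0.0501. FRE3, at -1.35, and FRE1 lost their calls without either hybrid replicate, and FRE1 was not called by DESeq2.

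Of the genes of amino acid synthesis, many of them targets of Gcn4, 11 of 37 were called lower and none higher. Over all genes 4.41% were called lower, and the list median was -0.17. With either hybrid library left out, 4 genes were called. Arginine genes led. ARG1, argininosuccinate synthase, had 239 and 128 CPM in the haploid and 55.4 and 60.4 CPM in the hybrid (log2 of -1.67, SE 0.25), and its call was lost without either hybrid replicate. CPA1, a subunit of the carbamoyl phosphate synthase for arginine, fell from 307 and 295 CPM to 212 and 198 CPM, while its S. cerevisiae allele had 347 and 343 CPM in the haploid and 440 and 475 CPM in the hybrid. The CPA1 responses differed by -0.96 (adjusted p = 0.000981). BAT2, a branched-chain aminotransferase, fell by 0.53 on the log2 scale, and its responses differed by -1.28.

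ARG3, at -1.64, ARG4, at -0.72, ARG7, at -0.64, and HIS1, at -0.72, were also lower, with calls that were each lost without at least 1 hybrid replicate. GCN4 itself was at -0.05. PCL5, the cyclin that directs Gcn4 degradation, had 456 and 409 CPM in the haploid and 166 and 206 CPM in the hybrid (log2 of -1.22, SE 0.11). The neighbouring amino acid permeases BAP2 and TAT1 fell from 725 and 705 CPM and 851 and 762 CPM to 436 and 422 CPM and 477 and 478 CPM. TAT1 overlaps an antisense transcript, TBRT, so its reads cannot be told apart from that one. PCL5, BAP2, TAT1 and the 4 genes that open this paragraph were chosen after their values were seen.

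**Figure D5:**
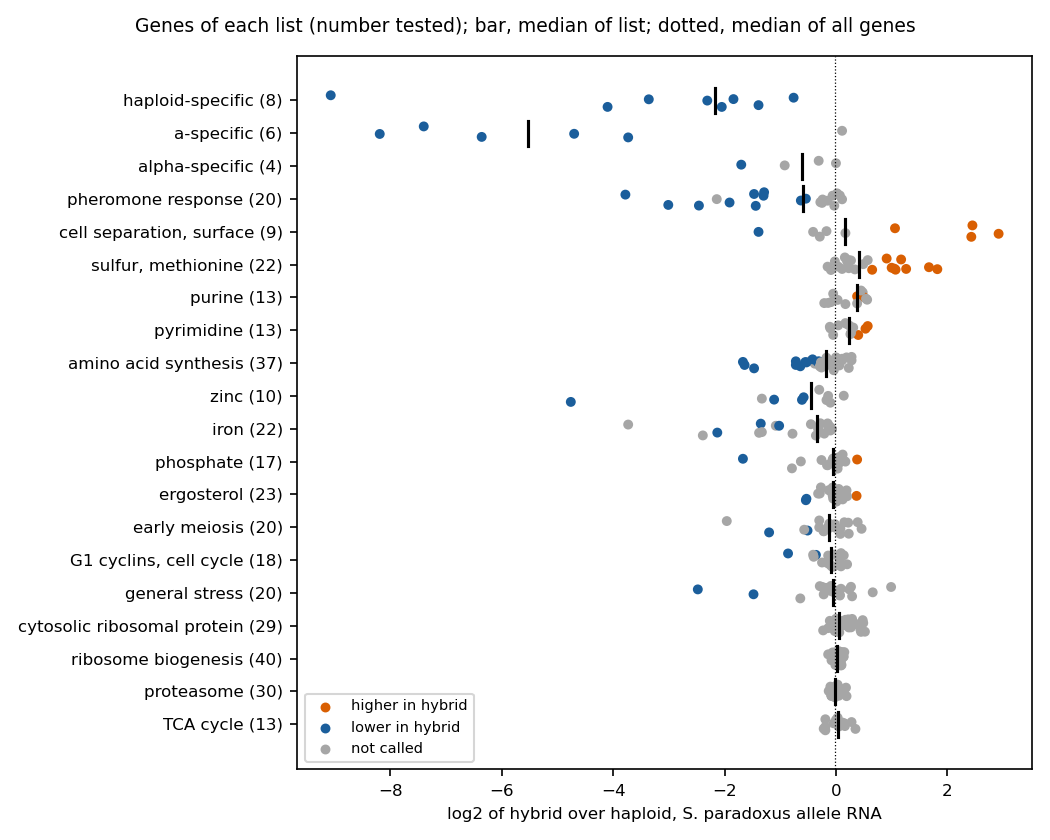
Change of every tested gene in 20 lists (log2 of hybrid over haploid, S. paradoxus allele RNA), with the number tested in parentheses, a bar at the median of the list and a dotted line at the median of all genes, -0.02. Mating lists lie to the left, with medians of -2.18 and -5.53 for haploid-specific and a-specific genes, and sulfur genes to the right, with a median of 0.42.

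A few genes of nucleotide synthesis rose slightly. Over all genes, 1.58% were called higher. The pyrimidine list had 3 of 13 genes higher and none lower, URA2, at 0.57, URA3, at 0.40, and the uracil permease FUR4, at 0.53. The purine list had 2 of 13 higher, ADE8, at 0.38, and ADE3, at 0.50. All 5 were lost without hybrid replicate 1, and all but URA2 without hybrid replicate 2. Without CBS432 replicate 1 the purine list had 8 genes higher and a median of 0.64, against a median of 0.06 without CBS432 replicate 2 and 0.38 with all libraries. The pyrimidine list had 6 genes higher without CBS432 replicate 2. The S. cerevisiae alleles of ADE8 and ADE3 had log2 changes of -0.70 and -0.50, and the responses differed by 1.09 and 1.00.

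Of the enzymes of fatty acid synthesis, 3 that were chosen by their values rose. FAS2, the alpha subunit of fatty acid synthase, had 2320 and 2191 CPM in the haploid and 4105 and 4234 CPM in the hybrid (log2 of 0.89, SE 0.09, adjusted p = 0.00103). FAS1, the beta subunit, rose by 0.59 (SE 0.09), with a call lost without hybrid replicate 2, and ACC1, acetyl-CoA carboxylase, rose by 0.69 (SE 0.08). The ergosterol list was split, with ERG10 higher at 0.37 and ERG11 and ERG3 lower at -0.53 and -0.54, each lost without either hybrid replicate.

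Many meiotic genes are kept low in cells growing in rich medium, haploid or diploid. Some listed genes had clear signal here, such as UME6 at 86.1 to 124 CPM. Of 20 early meiotic genes tested, 2 were called lower and none higher, against 4.41% called lower over all genes. IME4, an RNA methyltransferase needed for meiosis, had 122 and 127 CPM in the haploid and 92.3 and 83.2 CPM in the hybrid (log2 of -0.51, SE 0.09, adjusted p = 0.016), a call that was lost without hybrid replicate 2. Its antisense transcript, RME2, covers the whole gene in the annotation, so that the sense and antisense reads cannot be told apart. IME1, the master regulator, was low throughout, with 6.77 and 6.47 CPM against 2.95 and 2.82 CPM, and its call (adjusted p = 0.0455) was lost when any of the 4 libraries was left out.

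Several lists had 1 or 2 calls, against 5.99% of all genes called in either direction. They were STI1 of 13 chaperones (0.56), MRPL16 of 55 mitochondrial ribosomal protein genes (-0.41), COX13 of 33 respiratory genes (-0.39), GDH1 of 28 nitrogen-regulated genes (0.56), PYK2 of 14 glycolytic genes (-0.78) and STD1 of 8 genes of hexose transport (-0.39). HSP26 and DDR2, of 20 general stress genes, changed by -1.48 and -2.48 from haploid levels of 2.02 to 15.2 CPM. All 8 of these calls were lost without hybrid replicate 1, hybrid replicate 2 or either. Of 17 phosphate genes, PHO4 was called higher, at 0.38, and was lost without either hybrid replicate or without CBS432 replicate 2. PHO89, a sodium-coupled phosphate transporter, had 29.7 and 39.0 CPM in the haploid and 9.88 and 11.7 CPM in the hybrid (log2 of -1.67, SE 0.20, adjusted p = 0.00216), lower in each hybrid library.

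No gene passed edgeR's test of the S. paradoxus allele change in 7 lists. These were the lists of cytosolic ribosomal proteins (29 genes), ribosome biogenesis (40), the proteasome (30) and the TCA cycle (13). The others were glycerol metabolism and water channels (9), galactose use (7) and histones (3). List medians, in this order, were 0.06, 0.02, -0.02, 0.03, 0.09, -0.30 and -0.11. The first list also holds RPP1, a subunit of RNase P rather than a ribosomal protein. The ribosome biogenesis genes all lay between -0.14 and 0.15. At an unadjusted p under 0.05 there were 8, 0, 1, 5, 2, 4 and 1 genes in these lists, in the same order, and DESeq2 called 5, 0, 0, 1, 2, 2 and 1. Without CBS432 replicate 1, edgeR called 9 of the 29 cytosolic ribosomal protein genes, all higher in the hybrid. Most ribosomal protein genes of the genome were not analysed here. In the test of the difference between the alleles, 12 of the 40 ribosome biogenesis genes were called, all negative. The TCA cycle list had 1 positive and 1 negative call in that test. The glycerol and galactose lists had 2 positive calls each, and the cytosolic ribosomal protein list 1 negative call.

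Called genes lay on every chromosome. The share was between 1.09% on chromosome IX and 10.2% on chromosome XV, where 7 genes were higher and 43 lower of 488 tested. Median log2 changes by chromosome were between -0.05 on chromosome XIII and 0.06 on chromosome I. When genes were split by mean count into 4 equal bins, the share called was 3.36% in the lowest bin and 8.17% in the highest.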

How the data were processed

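The authors extracted RNA from mid-log cultures, made TruSeq libraries and sequenced them. They mapped reads with bwa, haploids to a reference for their own strain and the hybrid to both genomes together, and summed counts per gene in the coordinates of each species, leaving out sites called as indels. The submitters' processing notes also name CASAVA and the build sacCer3, and versions are not given in the sources used here. The deposited values are counts per gene (RNA) or per NFR (FAIRE), with no normalization. Gene coordinates printed are those of the tables; 4597 of 4995 genes matched a symbol in the R64 RefSeq table. NFR coordinates are printed as deposited. The tables of the other cross, with DBVPG1373, were not used.

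Counts were tested with edgeR 4.0.16 in R 4.3.3 (quasi-likelihood F-test), with column totals as library sizes, a mean count of at least 10 and Benjamini-Hochberg adjustment. DESeq2 1.42.0 was an alternative, and tables and figures were made in Python 3.11.15 with pandas 2.3.3, numpy 2.4.6 and matplotlib 3.10.9. The 2 allele columns of a hybrid library shared a term in the test of the difference in response between the alleles. A gene was paired with the NFR nearest its start codon within 300 bases upstream. With 2 libraries against 2, an exact permutation test cannot give a p under 0.33, so none was used. In counts simulated from the fitted dispersions, 200 genes were changed by 1.5 on the log2 scale. The RNA test recovered 100% of these, and 6.54% of its calls were unchanged genes. The test of the difference recovered 97.5% with 6.7% unchanged, and the FAIRE test, over NFRs, recovered 66.5% with 0% unchanged. Most called genes changed by less than 2-fold, so recovery of such changes was not tested. Mapping differences were not simulated. Replicates of a state differed beyond counting noise, as the chi-square over its degrees of freedom was 107 for CBS432 and 49.2 for the hybrid allele, which multiple counting of reads raises.

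The genes and lists were chosen with earlier results of these data known. The named genes were all listed haploid-, a- and alpha-specific genes in the tables, the 12 largest rises and 12 largest falls and the 4 largest differences between alleles in each direction (called, mean count of at least 100, states apart), and up to 4 genes of each other list with the smallest adjusted p, of which uncalled genes were mostly given as counts. Any gene named beyond this rule was chosen after its values were seen. Alternatives were TMM, scaling to 0.5 of both alleles' total, DESeq2, other count minimums, an adjusted p under 0.01, a replicate block and leaving out each library. No nucleotide or protein sequence is printed.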

Additional observations from a re-analysis of the deposited data

Results flagged for a closer look

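Flagged genes were sought among the listed mating genes, the 12 largest rises, the 12 largest falls and the 4 largest differences in each direction. For 25 of these, the change from haploid to hybrid differed between the S. paradoxus and the S. cerevisiae allele by edgeR's test of the difference. Of the 25, 16 had a positive value (S. paradoxus response minus S. cerevisiae response, log2) and 9 a negative value. Genes named from the other lists also had called differences and are not counted here, such as HXK1, at 3.07 (adjusted p = 2.6e-05). All values come from the same 2 hybrid libraries, and 18 of the 25 were called under every alternative tried for that test.

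Among mating genes, the value was 3.66 for NEJ1, 1.48 for MFA2, 1.18 for RDH54, 0.97 for STE5, 0.81 for STE18 and 0.52 for STE2. It was -2.85 for MFA1, -2.35 for ASG7 and -0.60 for AXL1. The calls for MFA2 and STE18 were lost in 6 alternatives each, that for AXL1 in 5 and that for STE2 in 3.

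Among sulfur genes and those listed with them as large rises, the value was 2.96 for MET3, 2.27 for MET10, 2.01 for MET5, 1.57 for MET17, 1.38 for MET2 and 0.95 for MXR1. It was 1.36 for YNL276C, which overlaps MET2, and 1.42 for YER076C, whose S. paradoxus allele rose from 63.0 and 64.5 CPM to 120 and 168 CPM and which overlaps YER076W-A by 109 bases. The calls for YNL276C and MXR1 were lost without hybrid replicate 2, and that for YNL276C also without hybrid replicate 1.

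YGP1, at 2.85, and TSL1, at 2.46, had called differences without a call in the S. paradoxus allele. The remaining values were -7.04 for YLL053C, -5.52 for ZPS1, -3.60 for YLL056C, -3.51 for PHO89, -1.40 for DSE1 and -0.81 for DSE2. For DSE1 and DSE2 both alleles were higher in the hybrid than in their haploids, and the DSE1 call was lost without either hybrid replicate. The S. cerevisiae allele of PHO89 had 1.21 and 1.04 CPM in UWOPS05_217_3 and 2.71 and 5.91 CPM in the hybrid. Groups of 2 libraries were too small for a test of single outlying libraries.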

How the results depend on the processing

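The 299 genes called for S. paradoxus allele RNA became 593 with DESeq2, 295 of them shared, and 138 at an adjusted p under 0.01. Leaving out 1 library gave 154 to 449. Of 95 called genes that the text or the rule names, none changed direction under any alternative, 60 kept the call throughout, and the losses were mostly without hybrid replicate 1 (28) or hybrid replicate 2 (31), where 1 library is left and is assumed to vary like the rest. MF(ALPHA)2, not called and at -0.00, turned to 0.01 with TMM, 0.00 with scaling to 0.5 of both alleles' total and 0.01 with DESeq2, and lay between -0.65 and 0.43 with a library left out. TMM normalization gave 365 genes, scaling to 0.5 of both alleles' total 305, no count minimum 297 and a minimum of 100 gave 299.

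The difference between the alleles' responses was called for 727 genes, and for 161 to 980 with a library left out. The 9 NFRs called in FAIRE became 12 to 39 in the same way. The numbers of the replicates pair no samples by the labels: deviations of same-numbered haploid and hybrid libraries correlated with r = 0.137 in RNA and 0.00759 in FAIRE across features. With the replicate number as a block, 384 genes, 1107 differences and 15 NFRs were called, and of the named calls only that of IME1 was lost. The lowest mean count of a called gene in RNA was 92, and FAIRE totals were at most 2670382.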
